A study of Mus musculus with 10 samples.

Results

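The tricarboxylic acid (TCA) cycle enzymes outside succinate dehydrogenase were taken as the rows of the raw count table with the symbols Cs, Idh2, Idh3a, Idh3b, Idh3g, Ogdh, Suclg1, Fh1 and Mdh2. All 9 genes were found, each in 1 row, among 38355 genes in all, and all 9 passed the count filter that left 12629 genes for testing. RNA was sequenced from cardiomyocytes of adult FVB/N mice, isolated by Langendorff perfusion and left without treatment. Of the 10 libraries, 5 came from wildtype mice and 5 from mice with the Epac1-PLN transgene, a cardiac-specific FRET biosensor, with 2 males and 3 females in each genotype. The labels call the mice adult without an age and do not name the promoter or founder line of the transgene.

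The cycle runs in the mitochondrial matrix, where it oxidises acetyl groups from fatty acids, glucose and ketone bodies to carbon dioxide and passes the electrons to the respiratory chain. The heart, which draws most of its energy from mitochondria, expresses these enzymes strongly. Citrate synthase opens the cycle, the isocitrate and 2-oxoglutarate dehydrogenases carry out its oxidative decarboxylations, succinyl-CoA ligase makes a nucleoside triphosphate directly, and fumarase and malate dehydrogenase regenerate oxaloacetate.

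Library totals ranged from 10632224 to 20983754 counts, and totals of the 2 genotypes were not distinguishable (2-sided exact permutation test, p = 0.183). Rapgef3, the gene for Epac1, stood at 10.4 to 15.9 CPM (counts scaled to the size of each library) in the wildtype and 1241 to 1741 CPM in the Epac1-PLN libraries, so every library matched its genotype label. All 6 cardiomyocyte markers (Myh6, Tnnt2, Tnni3, Actc1, Myl2, Ryr2) were present, with summed levels of 66481 to 79521 CPM in wildtype and 69075 to 79416 CPM in Epac1-PLN. Epac1-PLN replicate 4 had the lowest median Spearman correlation to the other 9, by a small margin, at 0.983 against 0.986 to 0.991 for each of those. It also had the highest summed level of 6 endothelial markers, 692.5 CPM against 337.7 to 572.4 CPM in the other 9, and of 5 smooth muscle and pericyte markers, 800.7 CPM against 277.9 to 721.1 CPM. Of those 5, Acta2 (407.9 CPM) and Pdgfrb were highest in this library. Rgs5 and Tagln were highest in wildtype replicate 2 and Myh11 in Epac1-PLN replicate 1. Wildtype replicate 5 had a median correlation of 0.989, inside the range of the other libraries. It had the lowest sum of 6 fibroblast markers (230.3 CPM, against 245.7 to 423.2 CPM) and the lowest smooth muscle and pericyte sum. Not every marker went with these sums. Col1a1 and Col3a1 were lowest in Epac1-PLN replicate 5 (10.7 and 31.8 CPM), and Myh11, Tagln and Pdgfrb were also lowest in other libraries. The genotype differences of the 9 genes and of the other cycle genes are also given without these 2 libraries. Their removal together was added after seeing the data.

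The 9 genes were abundant in every library, with 7245 to 77246 counts per gene and library. Together they took 1.5 to 1.64% of all counts in wildtype and 1.36 to 1.5% in Epac1-PLN. Levels are CPM scaled by edgeR's TMM factors. Compared per kilobase over the union of each gene's annotated exons, Idh2 had the highest level in wildtype, at 1073 ± 146.5 CPM per kb (SD, n = 5). Ogdh followed at 691.5 ± 55.8 CPM per kb and Mdh2 at 541.6 ± 47.4 CPM per kb. Idh3b (390.0 ± 22.1 CPM per kb) and Cs (389.5 ± 17.2 CPM per kb) did not differ beyond their spread. Below them lay Idh3g at 309.3 ± 26.8, Fh1 at 240.5 ± 9.33, Idh3a at 220.7 ± 7.28 and Suclg1 at 145.0 ± 11.4 CPM per kb.

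The order of these levels depended in part on the length used. Divided by the longest annotated transcript instead, Mdh2 (1201 ± 105.2 CPM per kb) stood above Ogdh (914.1 ± 73.7 CPM per kb), and Idh3a (433.9 ± 14.3 CPM per kb) was within the spread of Idh3g (401.6 ± 34.8 CPM per kb). Idh2 stayed highest, at 1551 ± 211.9 CPM per kb, and Suclg1 lowest, at 241.9 ± 19.0 CPM per kb. Which transcripts of each gene these cells use was not measured.

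**Figure D1:**
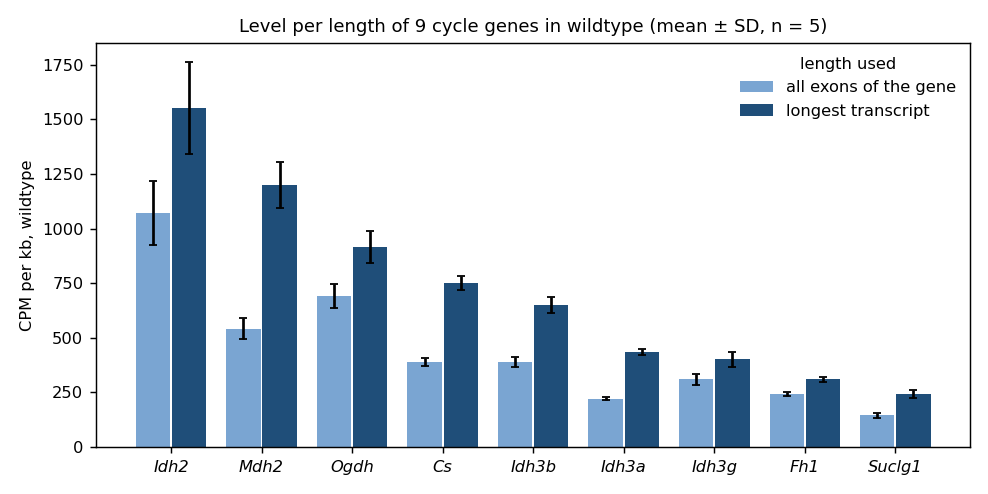
Bars give the wildtype mean level of each gene in CPM per kilobase, with SD over 5 libraries, for 2 definitions of gene length. Idh2 is highest and Suclg1 lowest under both, while Mdh2 and Ogdh change places.

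Between the genotypes 0 of the 9 genes were called by edgeR's quasi-likelihood test at a Benjamini-Hochberg adjusted p of 0.05, against 0.641% of all tested genes. At an unadjusted p of 0.05, 0 of the 9 passed as well, against 12.2% of all tested genes. DESeq2 and limma-voom called 0 of the 9 too. The unadjusted count changed with the method: 2 of the 9 passed in DESeq2 (Cs and Fh1, adjusted p of 0.333 and 0.415), and 3 in edgeR with upper-quartile factors (Cs, Idh3b and Fh1, adjusted p of 0.324 to 0.368). Without wildtype replicate 2, 1 passed in edgeR (Cs, adjusted p = 0.387). The shares of all tested genes that passed in these other settings are not given here, so these counts have no background. In the fitted model, 8 of the 9 had a lower level in Epac1-PLN, against 49% of all tested genes. The median log2 fold change was -0.12 over the 9 and 0.00 over all tested genes. Among the 211 tested genes at least as abundant as Suclg1, the lowest of the 9, 60.2% had a log2 fold change below 0, with a median of -0.03. The 95% intervals of single genes ran from folds of 0.785 to 0.931 at their lower ends to folds of 1.00 to 1.10 at their upper ends.

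**Figure D2:**
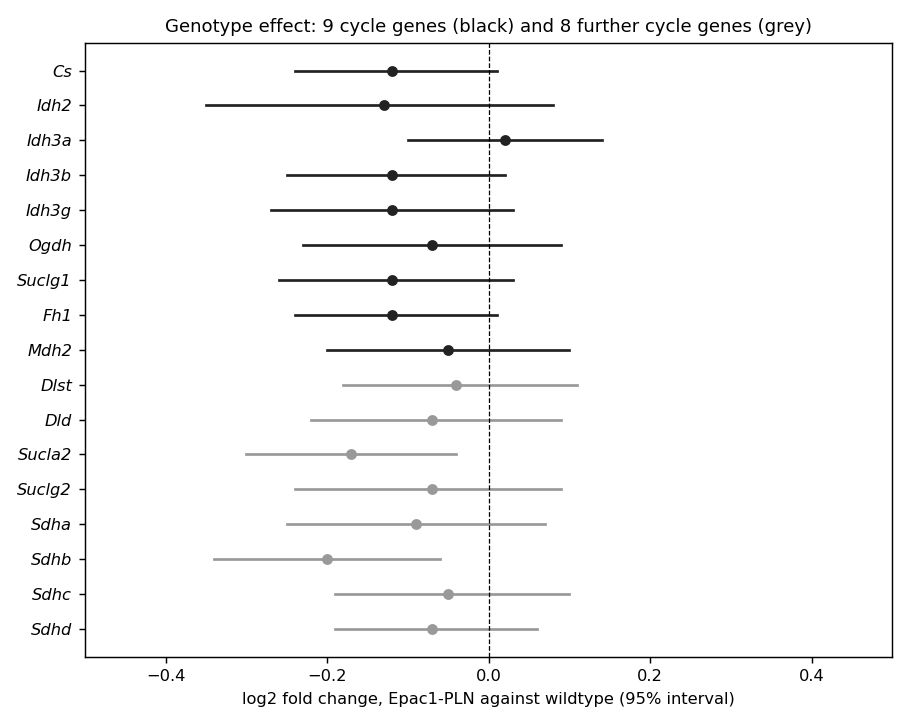
Points give the log2 fold change of Epac1-PLN against wildtype from the edgeR fit, with lines for the 95% interval, for the 9 cycle genes (black) and for succinate dehydrogenase and remaining complex subunit genes (grey). Idh3a, at 0.02, is the one point to the right of 0, and all black intervals cross 0.

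Citrate synthase, encoded by Cs (ENSMUSG00000005683, mm10 chromosome 10, 128337832 to 128362479), joins acetyl-CoA to oxaloacetate. Its level was 2419, 2165, 2194, 2231 and 2245 CPM in wildtype replicates 1 to 5 and 2158, 1988, 2093, 1947 and 2196 CPM in Epac1-PLN replicates 1 to 5. Epac1-PLN replicates 1 to 4 were lower than any wildtype library, and replicate 5 lay inside the wildtype range. The means were 2251 ± 99.2 and 2076 ± 107 CPM, with SD over 5 libraries per group. Cs had the smallest p of the 9 genes in edgeR's quasi-likelihood test (log2 fold change -0.12 ± 0.06 SE, unadjusted p = 0.0619, adjusted p = 0.438). Cs has a close copy, Csl, with 91.9% identity over 1522 bases, but Csl held only 25 to 63 counts per library against at least 23273 for Cs.

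The isocitrate dehydrogenases turn isocitrate into 2-oxoglutarate. Idh2 (ENSMUSG00000030541, chromosome 7, 80094846 to 80115392) encodes the mitochondrial enzyme that makes NADPH, which feeds antioxidant systems. It was the most variable of the 9, with a coefficient of variation of 13.7% in wildtype and 13.8% in Epac1-PLN, against 3.30 to 8.76% for the other genes. Idh2 stood at 2324, 2548, 2921, 2767 and 3321 CPM in wildtype and at 2310, 2825, 2850, 2035 and 2563 CPM in Epac1-PLN. The groups overlapped, with wildtype replicate 5 the highest and Epac1-PLN replicate 4 the lowest of all libraries. The log2 fold change was -0.13 ± 0.10 (adjusted p = 0.655, edgeR), and -0.04 without Epac1-PLN replicate 4.

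Idh3a, Idh3b and Idh3g encode the subunits of the NAD-dependent isocitrate dehydrogenase, the enzyme that supplies NADH in the forward direction of the cycle. The Idh3a protein is the catalytic subunit, and the Idh3b and Idh3g proteins are its partners, of which Idh3g is known as regulatory. Idh3a (ENSMUSG00000032279, chromosome 9, 54586511 to 54604661) stood at 1153, 1123, 1078, 1158 and 1085 CPM in wildtype and 1151, 1128, 1172, 1050 and 1172 CPM in Epac1-PLN. These groups overlapped over nearly their whole range, and the log2 fold change was 0.02 ± 0.06 (95% interval -0.10 to 0.14).

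Idh3b (ENSMUSG00000027406, chromosome 2, 130279309 to 130284547) stood at 1323, 1294, 1299, 1289 and 1468 CPM in wildtype and 1267, 1208, 1277, 1140 and 1250 CPM in Epac1-PLN. It was the only one of the 9 genes whose groups did not overlap, which held for 2.75% of all tested genes in either direction and for 1.24% with lower levels in Epac1-PLN. Among the 211 genes at least as abundant as Suclg1 the shares were 4.27% and 2.37%. The gap was narrow, from 1277 to 1289 CPM, and the fitted difference was not called (log2 fold change -0.12 ± 0.06, adjusted p = 0.476, edgeR). Without wildtype replicate 5 the log2 fold change was -0.08. Its 3′ end shares 5 bases with Nop56, which held 169 to 346 counts per library against at least 13658 for Idh3b.

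Idh3g (ENSMUSG00000002010, chromosome X, 73778963 to 73786897) stood at 790.4, 825.2, 791.4, 807.5 and 962.4 CPM in wildtype and 758.2, 767.2, 789.7, 722.4 and 804.6 CPM in Epac1-PLN. All Epac1-PLN libraries except replicate 5 were lower than any wildtype library, and wildtype replicate 5 lay far above the rest. The log2 fold change was -0.12 ± 0.07 (adjusted p = 0.528, edgeR) and -0.06 without that library, a change of over 1.5 times.

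The read counts of the 3 subunit genes were compared within each library, since a ratio of 2 genes in 1 library does not depend on the scaling between libraries. The ratio of Idh3b to Idh3g was 1.67, 1.57, 1.64, 1.6 and 1.53 in wildtype and 1.67, 1.57, 1.62, 1.58 and 1.55 in Epac1-PLN, so the ranges of the genotypes overlapped almost wholly. The ratio of Idh3a to Idh3b was 0.872, 0.868, 0.830, 0.898 and 0.739 in wildtype and 0.908, 0.934, 0.918, 0.921 and 0.938 in Epac1-PLN, without overlap. The ratio of Cs to Idh3a was likewise without overlap, at 2.01 ± 0.0796 in wildtype and 1.83 ± 0.0528 in Epac1-PLN. These 2 were the only such ratios among all 36 pairs of the 9 genes. Of the 22155 pairs among the 211 genes at least as abundant as Suclg1, 8.50% had ratios without overlap. The count among the 9 genes was not above that share. The ratios were looked at after the levels had been seen and carry no test.

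**Figure D3:**
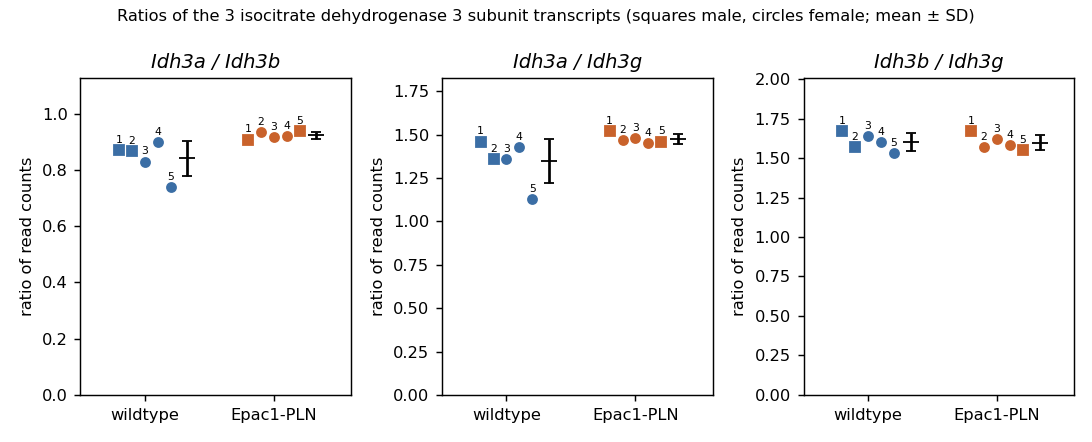
Points give the ratio of read counts of 2 subunit genes in each library, with replicate numbers, and dashes and bars the mean ± SD over 5 libraries. The ratios of Idh3a to Idh3b are 0.739 to 0.898 in wildtype and 0.908 to 0.938 in Epac1-PLN, whereas those of Idh3b to Idh3g are 1.53 to 1.67 and 1.55 to 1.67.

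Ogdh (ENSMUSG00000020456, chromosome 11, 6291633 to 6356642) encodes the E1 subunit of the 2-oxoglutarate dehydrogenase complex, a calcium-sensitive step of the cycle. It stood at 3675, 3463, 3690, 3755 and 4280 CPM in wildtype and 3500, 3526, 3801, 3280 and 3858 CPM in Epac1-PLN. The groups overlapped, and 2 Epac1-PLN libraries exceeded the wildtype mean of 3773 ± 304.3 CPM. The log2 fold change was -0.07 ± 0.07 (95% interval -0.23 to 0.09). Suclg1 (ENSMUSG00000052738, chromosome 6, 73248382 to 73276911), for the alpha subunit that both forms of succinyl-CoA ligase share, stood at 747.5, 674.3, 657.6, 600.0 and 667.6 CPM in wildtype and 671.8, 609.3, 640.9, 548.1 and 617.5 CPM in Epac1-PLN. Only Epac1-PLN replicate 4 was under the wildtype range, and the log2 fold change was -0.12 ± 0.07 (adjusted p = 0.525, edgeR).

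The last steps turn fumarate into oxaloacetate. Fh1 (ENSMUSG00000026526, chromosome 1, 175600374 to 175625635), for fumarate hydratase, stood at 826.0, 813.8, 801.2, 776.3 and 861.9 CPM in wildtype and 780.3, 744.2, 789.9, 692.4 and 759.3 CPM in Epac1-PLN. All 5 Epac1-PLN values lay below the wildtype mean of 815.8 ± 31.7 CPM, but the groups overlapped (log2 fold change -0.12 ± 0.06, adjusted p = 0.469, edgeR). Fh1 overlaps Kmo, which held at most 5 counts in any library. Mdh2 (ENSMUSG00000019179, chromosome 5, 135778480 to 135790398), for the mitochondrial malate dehydrogenase that also serves the malate-aspartate shuttle, stood at 2084, 1852, 1962, 1678 and 2070 CPM in wildtype and 1975, 1821, 1930, 1759 and 1845 CPM in Epac1-PLN. Its lowest value was in a wildtype library, replicate 4, and its log2 fold change was -0.05 ± 0.07 (95% interval -0.20 to 0.10).

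**Figure D4:**
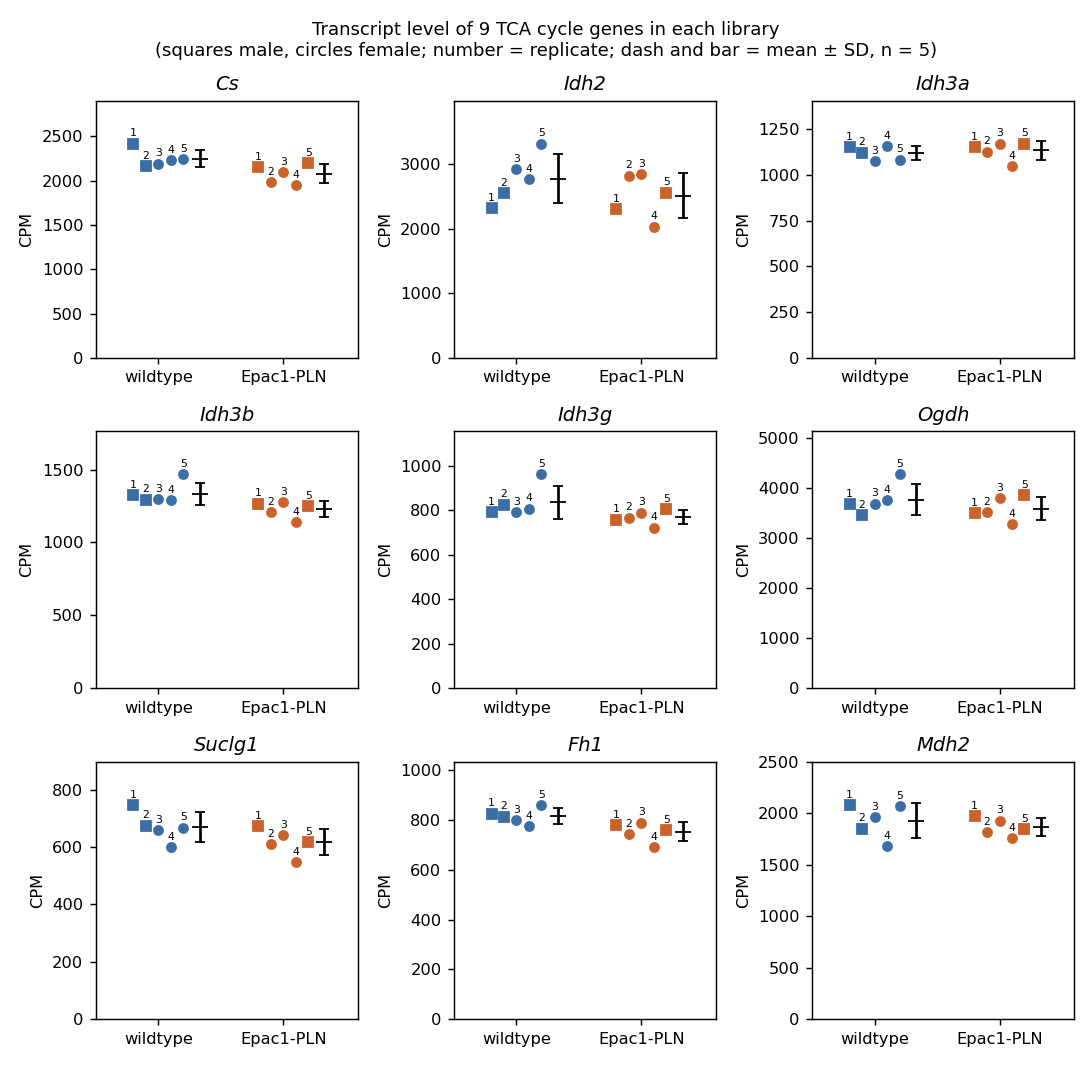
Each panel gives the CPM of 1 gene in the 10 libraries (squares male, circles female, labelled by replicate), with mean ± SD per genotype (n = 5) on axes that start at 0. The genotypes overlap in all panels except Idh3b, where wildtype is 1289 to 1468 CPM and Epac1-PLN 1140 to 1277 CPM.

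Much of the size of the difference came from 2 libraries at the ends of the range, Epac1-PLN replicate 4 and wildtype replicate 5. Epac1-PLN replicate 4 was the lowest of its group for all 9 genes and the lowest of all 10 libraries for 8 of them, with a mean log2 deviation from the wildtype means of -0.22. The other Epac1-PLN libraries had mean deviations of -0.09 to -0.02. Wildtype replicate 5 had a mean deviation of 0.10, the other wildtype libraries -0.05 to 0.01, and it was the highest of all libraries for 5 of the 9 genes. Without Epac1-PLN replicate 4 the median log2 fold change of the 9 was -0.08, and without wildtype replicate 5 it was -0.08. Without both it was -0.04, with 6 of the 9 below 0 and 0 called, and the log2 fold changes were -0.10 for Cs, 0.00 for Idh2, 0.01 for Ogdh and 0.00 for Mdh2. Since these 2 libraries had the lowest and the highest mean deviation, leaving them out had to narrow the mean difference.

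Among markers of other cell types, the endothelial and the smooth muscle and pericyte sums were highest in Epac1-PLN replicate 4, and the fibroblast and the smooth muscle and pericyte sums lowest in wildtype replicate 5. Single markers did not all follow these sums, as given above. The fibroblast sum of Epac1-PLN replicate 4, 385.0 CPM, lay below those of wildtype replicates 1 and 2 and of Epac1-PLN replicate 1. The endothelial sum of wildtype replicate 5, 348.2 CPM, lay above that of Epac1-PLN replicate 2, 337.7 CPM. All 6 fibroblast (Col1a1, Col1a2, Col3a1, Dcn, Pdgfra, Lum), all 6 endothelial (Pecam1, Cdh5, Kdr, Tie1, Tek, Emcn) and all 5 smooth muscle and pericyte markers (Acta2, Myh11, Tagln, Pdgfrb, Rgs5) were tested, and 0 were called with genotype. Dcn was called with sex, lower in females (log2 fold change -0.67, adjusted p = 0.00967, edgeR). It made up 107.3 CPM of the fibroblast sum of wildtype replicate 5, a female. Of the 4 atrial markers, Nppa was highest in Epac1-PLN replicate 4, at 73.1 CPM, and lowest in wildtype replicate 5, at 18.8 CPM. In Epac1-PLN replicate 4, Sln had no counts, and Myl7 (0.133 CPM) and Myl4 (1.6 CPM) were at or near the lowest levels of all libraries. The atrial sum was 22.0 to 68.4 CPM in wildtype and 27.9 to 74.8 CPM in Epac1-PLN. The endothelial sum ranged from 348.2 to 572.4 CPM in wildtype and from 337.7 to 692.5 CPM in Epac1-PLN, the fibroblast sum from 230.3 to 423.2 and from 245.7 to 401.6 CPM, and the smooth muscle and pericyte sum from 277.9 to 721.1 and from 420.5 to 800.7 CPM. Macrophage and leukocyte markers (6 of 7 symbols in the table) summed to 20.2 to 45.7 CPM in wildtype and 23.5 to 47.7 CPM in Epac1-PLN, with the highest values in wildtype replicate 5 and Epac1-PLN replicate 4 alike. Adipocyte markers summed to 220.7 to 449.0 and 175.0 to 401.8 CPM. Nearly all of that was Fabp4 (174.9 to 449.0 CPM over all libraries), as Adipoq, Plin1 and Lep were under 1 CPM in every library. Erythroid markers (4 of 5 in the table) summed to at most 9.37 CPM. The part of these markers in the levels of the cycle genes was not tested. In such bulk samples, fewer cardiomyocytes and less of a transcript per cardiomyocyte cannot be told apart.

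**Figure D5:**
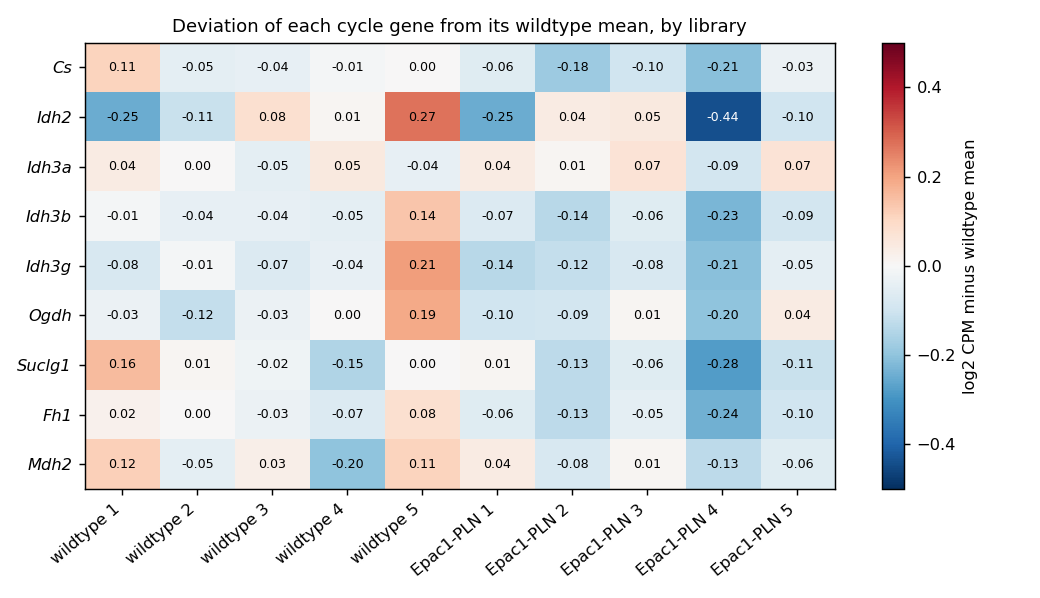
Cells give the log2 CPM of each gene minus its wildtype mean, by library, from blue (lower) to red (higher). The column of Epac1-PLN replicate 4 is below 0 for all 9 genes, down to -0.44 for Idh2, and wildtype replicate 5 holds the highest value for 5 genes, 0.27 for Idh2 among them.

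Within the genotypes, the 9 genes tended to vary together across libraries. With log2 CPM centred within genotype, the Pearson r of the 36 pairs over the 10 libraries ranged from -0.08 (Cs with Idh2) to 0.91 (Idh3b with Fh1), with a median of 0.52. Idh3b and Idh3g, the partner subunits, had an r of 0.87, but each also had an r of 0.86 with Ogdh. Idh3a had an r of 0.29 with Idh3b and 0.09 with Idh3g. The r of a gene with the other members together changed with the libraries used. For Idh3a it was 0.40 over all 10 libraries, 0.80 without wildtype replicate 5 and 0.37 without Epac1-PLN replicate 4 as well. For Idh3g it was 0.65, 0.64 and 0.02 in turn. The median of the 36 pairs was 0.27 without Epac1-PLN replicate 4, 0.61 without wildtype replicate 5 and 0.25 without both, so much of this likeness rested on Epac1-PLN replicate 4. Pairs with r above 0 numbered 34 of 36 with all 10 libraries and 24 without Epac1-PLN replicate 4. All points share library scaling, and r between other pairs of abundant genes is not given here. These values are given as a description.

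The genes whose pattern was most like the mean of the 9, among 4542 other genes with a mean log2 CPM of at least 5, were Tnni3 (r = 0.98), Spg7 (0.96), Mrps35 (0.95), Acot7 (0.94) and Rpl3l (0.94). Tnni3 encodes cardiac troponin I, Spg7 a subunit of a mitochondrial protease, Mrps35 a mitochondrial ribosomal protein, Acot7 an acyl-CoA thioesterase and Rpl3l a muscle form of a ribosomal protein. Without Epac1-PLN replicate 4 and wildtype replicate 5, r was 0.90, 0.87, 0.94, 0.68 and 0.74 for these genes in turn. None of these 5 was called with genotype (log2 fold changes -0.27 to 0.10, adjusted p of 0.212 to 0.927, edgeR). They were picked as the highest r of 4542 genes over 10 libraries and carry no test. The cardiomyocyte markers did not all follow Tnni3. Tnnt2 and Myl2 were also lowest in Epac1-PLN replicate 4 and highest in wildtype replicate 5. Actc1 was the reverse (14901 and 11053 CPM), and Myh6 and Ryr2 had both extremes in other libraries.

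Other subunits of cycle enzymes gave a similar picture. Of 8 further genes (Dlst, Dld, Sucla2, Suclg2, Sdha, Sdhb, Sdhc, Sdhd), 0 were called with genotype, against 0.641% of all tested genes. At an unadjusted p of 0.05 (edgeR), 2 passed, against 12.2% of all tested genes. All 8 had log2 fold changes below 0, from -0.20 to -0.04, with a median of -0.07. Below 0 lay 49% of all tested genes and 60.2% of the 211 genes at least as abundant as Suclg1. Sdhb, the iron-sulfur subunit of succinate dehydrogenase, had the smallest p (1329 ± 73.8 CPM in wildtype, 1159 ± 64.1 CPM in Epac1-PLN, log2 fold change -0.20 ± 0.06, adjusted p = 0.211, edgeR). Its groups did not overlap, at 1232 to 1423 and 1049 to 1216 CPM, as in 1 of the 8 genes, in 2.75% of all tested genes and in 4.27% of those 211. Sucla2, the ATP-specific beta subunit that pairs with the product of Suclg1, had a log2 fold change of -0.17 ± 0.06 (adjusted p = 0.267, edgeR), and Sdha, the flavoprotein subunit, one of -0.09 ± 0.08. Without Epac1-PLN replicate 4 and wildtype replicate 5 the median of the 8 was -0.02, 6 lay below 0, and the log2 fold changes were -0.14 for Sdhb, -0.14 for Sucla2 and 0.00 for Sdha.

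Among 25 genes linked to the cycle (cytosolic counterparts, anaplerotic enzymes, transaminases and carriers), 0 were called, 18 lay below 0 and the median log2 fold change was -0.09. At an unadjusted p of 0.05 (edgeR), 4 of the 25 passed, against 12.2% of all tested genes, and 49% of all tested genes lay below 0. The smallest p belonged to Idh1, the cytosolic counterpart of Idh2, at 114.7, 102.7, 95.1, 102.8 and 110.1 CPM in wildtype and at 83.4, 88.1, 84.6 and 81.9 CPM in Epac1-PLN replicates 2 to 5. Epac1-PLN replicate 1 was the highest of its group and just under the lowest wildtype library, so the groups did not overlap, but the difference was not called (log2 fold change -0.28 ± 0.07, adjusted p = 0.0868, edgeR). Slc25a11, the mitochondrial 2-oxoglutarate carrier, had a log2 fold change of -0.20 ± 0.07 (adjusted p = 0.224, edgeR) and Me1, the cytosolic malic enzyme, one of -0.21 ± 0.07 (adjusted p = 0.250, edgeR). Idh1 and Me1 were the 2 of the 25 genes whose groups did not overlap, against 2.75% of all tested genes. Without Epac1-PLN replicate 4 and wildtype replicate 5 the median of the 25 was -0.04, 16 lay below 0, and the log2 fold changes were -0.25 for Idh1, -0.17 for Slc25a11 and -0.12 for Me1. In both of these lists Epac1-PLN replicate 4 had the lowest summed level of all libraries, 7179 and 8984 CPM, and wildtype replicate 5 the highest, 8928 and 11391 CPM.

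Sex was tested in the same model. Of the 9 genes 0 were called between females and males by edgeR, against 0.340% of all tested genes, and 0 passed at an unadjusted p of 0.05, against 10.4%. DESeq2 and limma-voom called 0 as well. At the unadjusted p, Suclg1 passed with upper-quartile factors and Idh2 with no count filter. The shares of all tested genes that passed in those settings are not given here. Idh3g, the X-linked gene of the 9, stood at 806.8 ± 81.8 CPM in 6 females and 794.6 ± 28.2 CPM in 4 males (log2 fold change 0.02 ± 0.07, 95% interval -0.13 to 0.17). The largest difference was that of Idh2, at 2787 ± 418.2 CPM in females and 2436 ± 138 CPM in males (log2 fold change 0.19 ± 0.10, adjusted p = 0.539, edgeR). All females except Epac1-PLN replicate 4 lay above all males, and without that library the log2 fold change was 0.26 ± 0.07 (unadjusted p = 0.0027, adjusted p = 0.114, edgeR). Over all tested genes, those called with sex also rose, from 43 to 81, when that library was left out. The share of all genes that separate the sexes in this way was not counted. Suclg1 lay the other way, at 620.6 ± 44.3 CPM in females and 677.8 ± 53.3 CPM in males (log2 fold change -0.13 ± 0.07, adjusted p = 0.532, edgeR).

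The genotype effect did not differ detectably between the sexes. For the genotype-by-sex term, edgeR called 0 of 12629 genes, with 474 at an unadjusted p of 0.05 (3.75%), while DESeq2 called 1. The largest term among the 9 was that of Idh2, -0.23 ± 0.20 on the log2 scale (adjusted p = 0.993, edgeR). With 2 male libraries per genotype, differences of this size were not resolved.

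Promoter windows of 8 of the 9 genes, from 250 bases before to 50 after a RefSeq start site (GRCm38.p6), were searched on both strands for sites of factors known to act on mitochondrial or cAMP-responsive genes. Idh3a was not in the table used. The core TGACG of the cAMP response element (CRE) was present in 6 of the 8 genes, against 23.0% of 27025 genes. Those 27025 genes were not matched to the 8 for level or base composition, here or for the motifs below. Its palindrome TGACGTCA, which contains the core on both strands, was present in Mdh2 and Ogdh, against 2.03% of genes, and was added to the search after the core had been seen. The SP1 box GGGCGG was present in 5 of 8 (38.2% of genes), and the GABP element CCGGAAG in Idh3b and Idh3g (9.93%). Ogdh alone held the oestrogen-related receptor element AAGGTCA (5.38%) and the NRF1 element GCGCATG (4.41%), and Idh3g the YY1 element AAGATGG (7.28%). Ogdh has 6 windows in the table and the others 1 each, and a gene was counted if any of its windows matched.

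The promoters of Mdh2 and Ogdh are shown because they hold the full CRE palindrome, and that of Idh3b because its levels did not overlap between the genotypes. Capitals mark every searched site, and sequences run from 5′ to 3′ on the strand of the gene. The palindrome begins at position -127 in Mdh2 and at -51 in the first listed window of Ogdh, counted from the start site.
Mdh2, chr5:135778399-135778698, plus strand: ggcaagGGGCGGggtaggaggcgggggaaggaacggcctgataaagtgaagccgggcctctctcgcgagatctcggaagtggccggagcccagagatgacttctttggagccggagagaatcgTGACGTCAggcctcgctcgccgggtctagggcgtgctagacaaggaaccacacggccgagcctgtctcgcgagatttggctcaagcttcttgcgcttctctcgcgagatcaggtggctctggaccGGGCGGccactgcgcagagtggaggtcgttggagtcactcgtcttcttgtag
Ogdh, chr11:6291347-6291646, plus strand: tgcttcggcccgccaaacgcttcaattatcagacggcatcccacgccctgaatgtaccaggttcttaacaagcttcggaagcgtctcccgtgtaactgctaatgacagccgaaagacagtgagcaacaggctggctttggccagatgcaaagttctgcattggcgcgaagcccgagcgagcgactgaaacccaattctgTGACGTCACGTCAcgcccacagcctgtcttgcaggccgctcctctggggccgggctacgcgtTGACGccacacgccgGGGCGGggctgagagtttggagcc
Idh3b, chr2:130284402-130284701, minus strand: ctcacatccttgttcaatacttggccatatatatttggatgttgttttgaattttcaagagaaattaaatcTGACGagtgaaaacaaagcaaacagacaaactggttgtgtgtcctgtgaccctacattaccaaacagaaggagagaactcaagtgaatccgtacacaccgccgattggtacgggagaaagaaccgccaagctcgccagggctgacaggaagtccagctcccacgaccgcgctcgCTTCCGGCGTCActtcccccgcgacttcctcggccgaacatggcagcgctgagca
In Idh3b a GABP element and a CRE core, both on the other strand, adjoin at the start site, from positions -5 and 3. A match describes these letters only, and binding was not measured.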

How the data were processed

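Cardiomyocyte RNA of 10 mice was sequenced on a HiSeq2000 from TruSeq libraries, per the labels' protocols. The authors deposited read counts for Ensembl genes and, separately, a normalised signal, in which each deposited count is divided by 1 size factor per library (largest relative deviation 5.33e-15). The submitters' processing notes name STAR 2.3.0 and HTSeq 0.5.4 beside CASAVA 1.8.2, DESeq, DESeq2, FastQC 0.10.0 and the build mm10. Settings, annotation and use of strand: not given in the sources used here.

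From the counts, genes were kept by filterByExpr of edgeR 4.0.16 on genotype, scaled by TMM and tested by robust quasi-likelihood fits in R 4.3.3, with sex and genotype in the model and Benjamini-Hochberg adjustment over all 12629 genes at 0.05. Standard errors were derived from the F statistic and the fold change. Log2 CPM values used a prior count of 2. Exon lengths came from GENCODE M21, matched by gene ID, and close copies were searched there at 90% identity over 200 bases. The labels call the libraries biological replicates, and pairs within a group differed beyond sampling noise (chi-square over its degrees of freedom, 7.55 to 30.3 in 20 pairs). Named genes are the 9 members, up to 3 of each list with the smallest p and the 5 with the most similar pattern. The members and lists were chosen with earlier results of these data known. Alternatives were other factors (RLE, upper quartile), DESeq2 1.42.0, limma-voom (limma 3.58.1), other filters, genotype alone, a replicate block, females only and each library left out. The removal of 2 libraries together, and the gene lists and the median correlation without these libraries, were added after seeing the data. 1 gene of the cycle is not reported here.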

Additional observations from a re-analysis of the deposited data

Results flagged for a closer look

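In wildtype, Idh3b was at 1468 CPM in replicate 5, far from the other 4 libraries (1289 to 1323 CPM), and Idh3g was at 962.4 CPM in the same library, far from the other 4 (790.4 to 825.2 CPM). The gap to the nearest library was 0.813 and 0.798 of the group's range, above Dixon's critical value of 0.71 for 5 samples. Of 18 groups examined (9 genes in 2 genotypes) these 2 stood out, and chance alone gives about 1 in 20. Without wildtype replicate 5, the log2 fold changes of Epac1-PLN against wildtype were -0.08 for Idh3b and -0.06 for Idh3g.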

How the results depend on the processing

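Over 20 alternatives, 0 of the 9 genes were called with genotype or, where sex was tested, with sex. The smallest adjusted p over them was 0.324 for genotype (Cs, upper-quartile factors) and 0.114 for sex (Idh2, without Epac1-PLN replicate 4). Of 180 genotype values, 178 kept their direction. The others were Ogdh (0.01) and Mdh2 (0.00) without wildtype replicate 5 and Epac1-PLN replicate 4, while single libraries left out gave -0.11 to -0.02 and -0.09 to -0.01. Of 153 sex values, 10 changed direction, all near 0: Idh3g at -0.01 with upper-quartile factors and -0.02 without the same 2 libraries, and, with single libraries left out, Idh3b (-0.04 to 0.01), Idh3g (-0.03 to 0.04) and Ogdh (-0.01 to 0.08).

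Counts over all genes moved more. Genes called with genotype numbered 81, but 265 with DESeq2, 498 with no count filter, 37 with genotype alone, 4 in females only and 14 to 103 with single libraries left out (14 without wildtype replicate 1, 20 without Epac1-PLN replicate 3, 39 to 46 without each of the others except Epac1-PLN replicates 2 and 4). Genes called with sex numbered 43, but 158 with DESeq2, 521 with no count filter, 75 without the 2 libraries together and 18 to 93 with single libraries left out (18 to 20 without wildtype replicate 1 or 2 or Epac1-PLN replicate 1, 81 and 93 without Epac1-PLN replicates 4 and 5). The genotype-by-sex term called 0 genes, but 1 with DESeq2, 164 with no count filter, 3 without the 2 libraries and 0 to 6 with single libraries left out (6 without Epac1-PLN replicate 1). The cause was not tested. With the replicate number as a block in place of sex, 3 genes were called with genotype and 0 of the 9. Libraries with the same number did not deviate together in every pair (r = 0.35, -0.30, 0.14, -0.21 and 0.10), and 1 of 5 wildtype libraries correlated best with its own number. These r showed no pairing by number, but 5 such values cannot settle whether there was one. Replicate 1 of both genotypes, each a male, had the highest levels of 3 atrial markers. In wildtype and Epac1-PLN these were 1.9 and 2.04 CPM for Sln, 4.09 and 6.21 CPM for Myl7, and 8.99 and 8.81 CPM for Myl4. The other atrial marker, Nppa, was highest in Epac1-PLN replicate 4. Counts alone do not tell which transcript of a gene was present.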
